A study of Mus musculus with 16 samples.

Results

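The passenger, or star, strands of mouse miRNA hairpins were followed in dorsal skin on 16 miRNA arrays. The star strands were all array entries with a mouse name ending in an asterisk, apart from miR-21*, miR-31*, the miR-297, miR-466, miR-467 and miR-669 families, and a cluster on chromosome 12. Of 577 miRNAs on the array, 114 had star names. Of these, 96 met the rule, 13 lay in the chromosome 12 cluster, 3 belonged to the listed families and 2 were the star strands of miR-21 and miR-31. Each was set beside its guide strand, the partner without the asterisk. A guide was on the array for 95 of the 96, and miR-125b* was the exception. The 95 star strands shared 90 guides, because some guides come from more than 1 hairpin.

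The 4 groups held 4 arrays each. WT no UV and KO no UV were skin of Ppard+/+ and Ppard-/- mice without irradiation, and WT UV and KO UV were lesion-free skin after 12 weeks of UVB at 70 mJ/cm2, 3 times a week. Ppard encodes the nuclear receptor PPARβ/δ. Per the methods, all mice were hairless albino females of 8 to 12 weeks of age on the mixed background SKH1-C57/Bl6-SV129, WT and KO were littermates, and controls were sham manipulated and matched for age. The methods do not say at which point of the study that age held, and irradiation alone lasted 12 weeks. Ppard mRNA is not on a miRNA array, and genotypes were taken as labelled. The labels do not say whether each array held the RNA of 1 mouse, so the spread within a group may be in part technical.

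A miRNA hairpin is cut into a duplex of a pair of short strands. Usually the guide strand is loaded into an Argonaute protein and represses mRNAs that match its seed, the bases near its 5′ end, while the passenger strand is discarded. Some passenger strands are nevertheless kept and loaded, and because their seed differs from that of the guide they address other mRNAs. Both strands come from the same transcript, so a change in transcription moves both, while a change in strand choice or stability can move them apart. In skin, miR-203 is the best known miRNA of the differentiating epidermis, miR-29 family members target collagen mRNAs, and miR-133a belongs to skeletal muscle, which lies under the dermis as a thin sheet.

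The sequences shown are those of some star strands described below, with guides for miR-203, miR-29c and miR-22 and with pairs that share a seed. They are from RefSeq (GRCm38.p6), in which 31 of 39 detected star strands looked up were found, and miR-140*, miR-199b* and miR-712* were among those not matched. MiR-133a* and miR-378* were not among the 39, so their sequences are not shown. Capitals mark the seed, bases 2 to 8.
miR-203*: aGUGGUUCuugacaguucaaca
miR-203: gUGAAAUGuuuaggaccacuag
miR-29c*: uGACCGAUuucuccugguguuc
miR-29c: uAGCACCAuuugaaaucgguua
miR-29b*: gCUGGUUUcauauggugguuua
miR-22*: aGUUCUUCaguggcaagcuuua
miR-22: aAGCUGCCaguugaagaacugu
miR-24-1*: gUGCCUACugagcugauaucagu
miR-24-2*: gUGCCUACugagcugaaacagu
miR-30a*: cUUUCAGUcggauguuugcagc
miR-30e*: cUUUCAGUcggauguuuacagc
In each hairpin shown with both strands, the star and the guide have different seeds. MiR-24-1* and miR-24-2* share their first 16 bases and thus their seed, UGCCUAC, although they come from hairpins on different chromosomes. MiR-30a* and miR-30e* differ at 1 base and share the seed UUUCAGU. MiR-200a* and miR-200b*, from 1 cluster on chromosome 4, share the seed AUCUUAC, and miR-30c-1* and miR-30c-2* share UGGGAGA. Whether the probes tell such near-identical strands apart was not tested.

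All irradiated arrays lay on 1 slide and all non-irradiated arrays on the other, so irradiation and slide cannot be told apart, and on the irradiated slide WT and KO also occupied different rows. The irradiated slide was noisier. The SD of negative control spots was 9.76 to 11.6 signal units there and 4.14 to 6.91 on the other slide. The software detected 184 to 206 miRNAs per irradiated array and 216 to 266 per non-irradiated array. No spot of a star strand or its guide was saturated, and the number of arrays limits the precision. In whole skin, fewer cells of a type and less RNA per cell cannot be told apart.

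Most star strands were not detected. Of the 96, 12 were detected on all 16 arrays, 29 on 1 to 15 arrays and 55 on none. In percent, 12.5% of the star strands were detected on all arrays and 57.3% on none, against 33.3% and 48.2% of the miRNAs without a star name. Of the 90 guides, 59 were detected on all arrays and 18 on none. Detection of the guide and of the star strand often differed. Among the 64 star strands whose guide was on all 16 arrays, 34 were detected at least once and 30 never. In the other direction, 5 star strands were detected while their guide was detected on no array: miR-135a* on 8 arrays, miR-191* on 5, miR-295* and miR-302c* on 2 each and miR-330* on 1.

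Detection differed between the groups. The 4 WT no UV arrays detected 22, 30, 20 and 20 of the 96 star strands, and the KO no UV arrays 35, 31, 31 and 30. The WT UV arrays detected 15, 16, 13 and 19, and the KO UV arrays 17, 15, 14 and 14. Over all miRNAs the counts were 229, 246, 216 and 219 in WT no UV and 266, 258, 241 and 232 in KO no UV. They were 199, 195, 196 and 206 in WT UV and 194, 184, 191 and 185 in KO UV. The counts over all miRNAs thus differed between the groups too. The counts of the non-irradiated arrays were all above those of the irradiated arrays. No star strand was detected on the irradiated slide alone, 22 were detected on the non-irradiated slide alone and 19 on both. The same split by slide is not given here for all miRNAs, so it is not shown to be particular to star strands. The noise moved with these counts: the median error that the software gave the star strands detected nowhere was 2.51 to 3.54 signal units per non-irradiated array and 4.77 to 6.04 per irradiated array. Brightness differed too. The summed signal per array before normalization was 170979 to 265981 in WT no UV and 254694 to 395200 in KO no UV. It was 223198 to 313107 in WT UV and 200905 to 231139 in KO UV. The parts of noise and brightness in the counts were not tested. Detection and normalized signal did not move together for miR-29b*. It was detected on 4 arrays of WT no UV, 4 of KO no UV, 2 of WT UV and 0 of KO UV, while its normalized signal was 6.72 to 10.1, 5.49 to 10.1, 8.86 to 15.6 and 10.6 to 16.9 in those groups. All of these signals were under the floor of 19.4 described below, so they do not settle how its level changed.

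**Figure D1:**
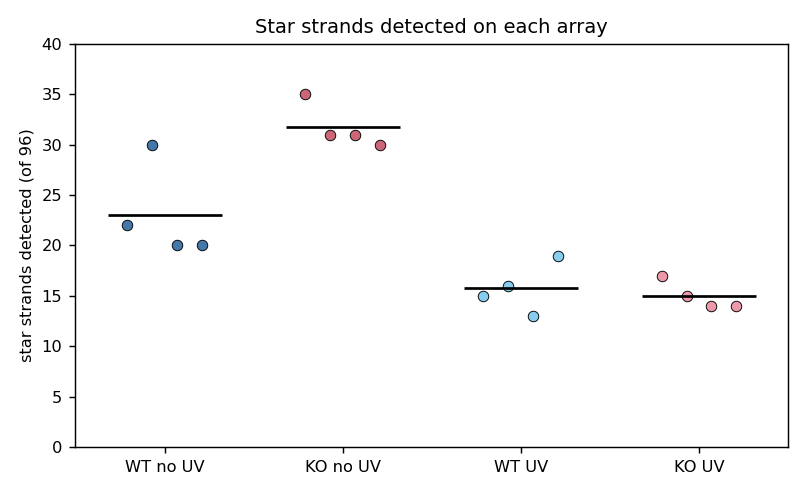
Number of the 96 star strands detected on each array (points) in the 4 groups, with the group mean as a bar. The non-irradiated arrays reach 20 to 35 and the irradiated arrays 13 to 19.

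Quantile-normalized signals are given in linear units. MiR-199b*, from a hairpin family of fibroblasts, read 846 to 1611 over the 16 arrays. MiR-133a* ranged from 133 to 395, miR-140* from 243 to 311 and miR-203* from 127 to 267. Each has its own probes, so these signals place a star strand among arrays and not among other miRNAs. A group of 13 star strands stood above the floor of 19.4 signal units on all arrays: the 12 detected everywhere (miR-133a*, miR-140*, miR-17*, miR-199b*, miR-203*, miR-22*, miR-24-1*, miR-24-2*, miR-30a*, miR-30e*, miR-378* and miR-674*) and miR-29c*, detected on 13. Values under the floor were set to it before log2 was taken, so dim changes are understated. In all, 26 star strands were detected on every array of at least 1 group and were tested. Of these, 7 were at the floor on all 16 arrays and 6 on some. For 10 of the 26, KO no UV was the only group with detection on all 4 arrays, so counts over the 26 are not counts over all star strands.

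**Figure D2:**
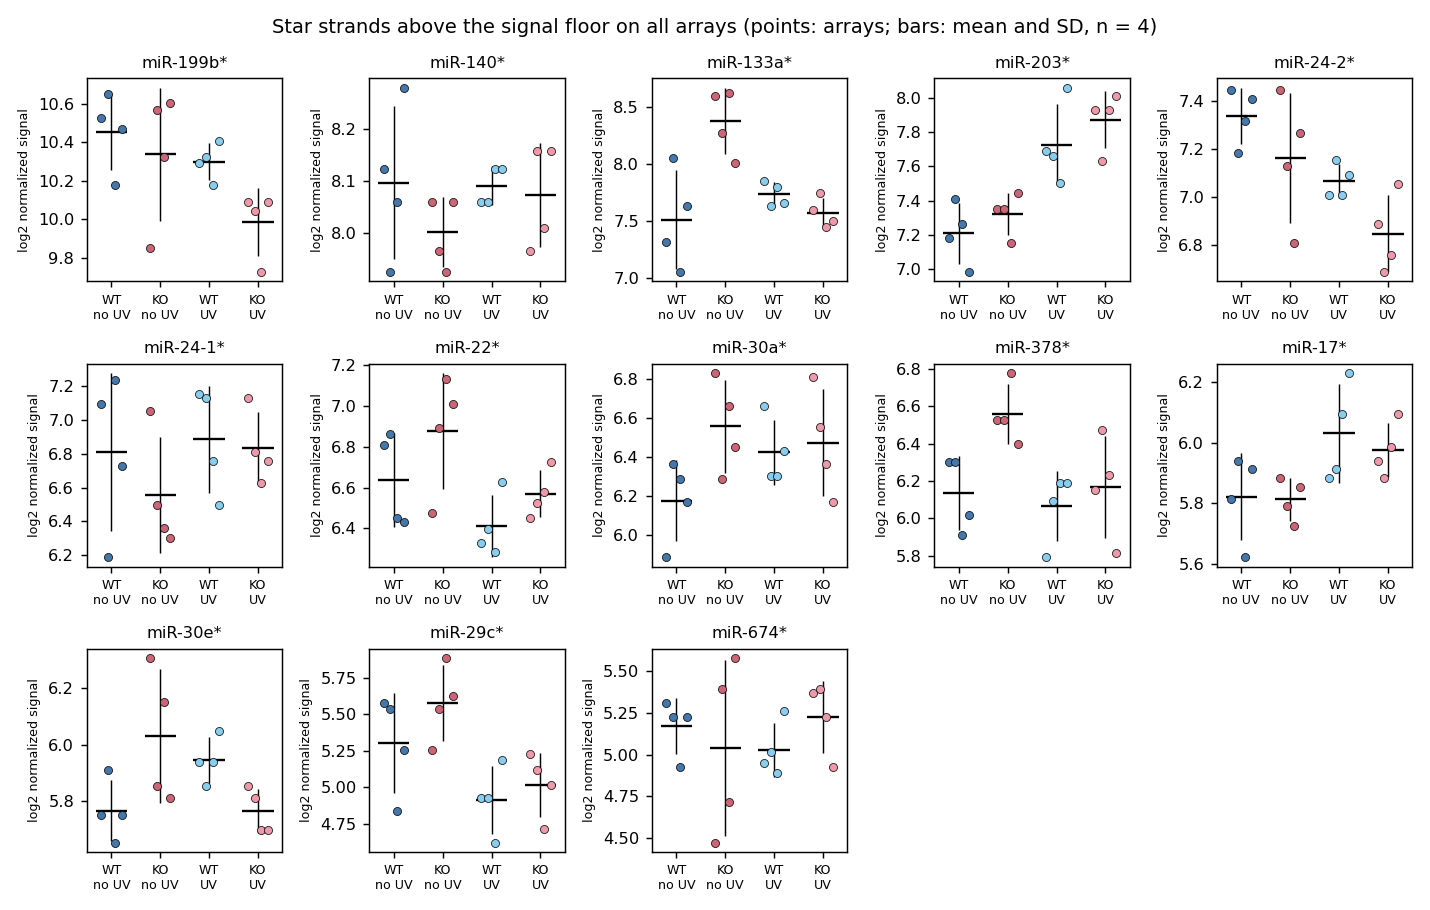
Log2 normalized signal of the 13 star strands above the floor on all arrays, by group, with each array as a point and mean and SD (n = 4) as lines; each panel has its own vertical scale. MiR-203* is higher in both irradiated groups, and miR-133a* is highest in KO no UV.

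The first comparison asked whether loss of Ppard moved star strands in unexposed skin. With limma and Benjamini-Hochberg adjustment over 228 miRNAs, 0 of the 26 star strands were called, beside 0% of all miRNAs tested. At an unadjusted p under 0.05 there were 4 star strands (miR-133a*, miR-378*, miR-30e* and miR-30a*) among 36 miRNAs, and all 4 were higher in KO.

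MiR-133a*, from a muscle hairpin, had signals of 160, 267, 133 and 198 in WT no UV and 388, 311, 395 and 258 in KO no UV. The ranges touched only through the brightest WT and the dimmest KO array. The log2 difference was 0.86 ± 0.19 (SE, n = 4 per group; limma, adjusted p = 0.0552), and its guide miR-133a differed by 0.75 (adjusted p = 0.0635). The call depended on the setting. It was made under 4 of 9 alternatives, with adjusted p from 0.0198 to 0.254 over the 9, and also without WT no UV replicate 2 (adjusted p = 0.00158) or without KO no UV replicate 4 (adjusted p = 0.0184). The summed signal of 4 skeletal muscle miRNAs (miR-1, miR-133a, miR-133b and miR-206) was 20453 to 41168 in WT no UV and 40655 to 50330 in KO no UV. MiR-1 read 24580 on all 4 KO no UV arrays, a value set by its rank under quantile normalization. The part of muscle content in the value of miR-133a* was not tested.

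MiR-378*, whose hairpin lies in the gene of a mitochondrial coactivator, read 79.0, 79.0, 60.2 and 64.9 in WT no UV and 92.2, 92.2, 110 and 84.3 in KO no UV, without overlap. The log2 difference was 0.42 ± 0.14 (limma, adjusted p = 0.161). MiR-30e* differed by 0.26 ± 0.10 (limma, adjusted p = 0.202). MiR-203* differed by 0.11 ± 0.12 (limma, adjusted p = 0.756), and miR-29b* was at the floor throughout.

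After irradiation, 0 of 26 star strands were called between KO and WT by limma, beside 2.19% of all miRNAs tested. At an unadjusted p under 0.05 there were 0 star strands and 21 miRNAs. The smallest p belonged to miR-30c-2*, with a log2 difference of 0.24 ± 0.11, miR-199b* with -0.31 ± 0.15 and miR-24-2* with -0.22 ± 0.12 (limma, adjusted p = 0.561, 0.561 and 0.645). The signals of miR-199b* did not overlap, at 1254, 1284, 1157 and 1357 in WT UV and 1089, 1055, 846 and 1089 in KO UV. The difference of miR-133a* was -0.16 ± 0.19 (limma, adjusted p = 0.951) and that of miR-203* was 0.15 ± 0.12 (limma, adjusted p = 0.855).

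The next comparisons set irradiated against non-irradiated skin within each genotype, where the slides differ too. In WT, limma called 1 of 26 star strands, or 3.85%, beside 16.2% of all miRNAs tested, of which 9.21% were higher and 7.02% lower. The single star strand was higher. In KO, it called 3 of 26, or 11.5%, beside 29.8%, of which 18.4% were higher and 11.4% lower. Of the star strands 1 was higher and 2 were lower. In every comparison of single strands, the 7 star strands at the floor on all arrays could not be called, which lowers these shares. Of the 26, 13 were above the floor on all arrays, against 170 of the 228 miRNAs. Among those 13, 1 was called in WT and 3 in KO. The count of star strands at an unadjusted p under 0.05 was 3 in WT and 8 in KO, among 75 and 94 of all 228 miRNAs. Over the 13 star strands above the floor on all arrays, the median log2 difference was -0.01 in WT and -0.26 in KO, and over the 170 miRNAs above the floor on all arrays it was 0.0021 and 0.026. Over all 26 star strands, and over all 228 miRNAs, it was 0 in both genotypes.

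MiR-203* rose with irradiation in both genotypes. Its probes lie at chr12:113369101-113369121 (mm9, plus strand). It read 145, 170, 154 and 127 in WT no UV and 207, 202, 181 and 267 in WT UV. It read 163, 163, 142 and 175 in KO no UV and 243, 198, 243 and 258 in KO UV. In both genotypes every irradiated array was above every non-irradiated array. The log2 difference was 0.52 ± 0.12 in WT, a 1.43-fold change (limma, adjusted p = 0.0109), and 0.55 ± 0.12 in KO, a 1.46-fold change (limma, adjusted p = 0.00926).

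The guide miR-203 read 9230 to 11110 in WT no UV and 12240 to 15060 in WT UV, a log2 difference of 0.30 (limma, adjusted p = 0.268). In KO the guide rose by 0.59 on the log2 scale (limma, adjusted p = 0.0284). Quantile normalization gives every array the same set of values, so the brightest signals follow rank. MiR-203 read 24580 on KO UV replicate 4, the value that miR-1 held on all 4 KO no UV arrays. How far ranks shaped the rise of miR-203 and the sums of bright miRNAs was not tested. MiR-203* kept its call in both genotypes with any array left out. In WT, however, the adjusted p was 0.0579 when arrays were scaled by the 75th percentile over miRNAs detected everywhere, 0.0558 with only the WT arrays and 0.0511 with the array row as a covariate, and normexp background correction turned the WT value to -0.46 and left KO at 0.39, neither called. Of the 6 keratinocyte miRNAs listed (miR-203, miR-205, miR-200a, miR-200b, miR-200c and miR-141), 3 rose in WT and 5 in KO. Their summed signal was 20901 to 24787 in WT no UV, 25116 to 30619 in WT UV, 21399 to 26918 in KO no UV and 28163 to 42103 in KO UV. That list holds the guide itself, and its part in the rise of miR-203* was not tested.

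MiR-133a* fell with irradiation in KO. Its probes lie at chr18:10782948-10782967 (mm9, minus strand). From 388, 311, 395 and 258 in KO no UV it went to 193, 215, 175 and 181 in KO UV, so that all irradiated arrays were lower. The log2 difference was -0.81 ± 0.19, a 1.75-fold change (limma, adjusted p = 0.0105). In WT it read 133 to 267 without UV and 198 to 231 after it, a difference of 0.22 ± 0.19 (limma, adjusted p = 0.485). The guide changed by -1.25 in KO (limma, adjusted p = 0.00125) and by -0.29 in WT (limma, adjusted p = 0.355). All 4 skeletal muscle miRNAs fell in KO and 0 of 4 were called in WT. Their summed signal was 19464 to 24489 in KO UV and 21899 to 25985 in WT UV. The call of miR-133a* held with any array left out and was lost under normexp (adjusted p = 0.0978).

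MiR-29c*, with probes at chr1:196863757-196863777 (mm9, plus strand), fell in KO from 38.3, 46.4, 59.1 and 49.2 to 37.4, 34.7, 26.3 and 32.4. The log2 difference was -0.56 ± 0.18, a 1.47-fold change (limma, adjusted p = 0.0391). In WT it read 47.8, 46.4, 28.6 and 38.3 without UV and 30.4, 30.4, 24.7 and 36.4 after it, a difference of -0.39 ± 0.18 (limma, adjusted p = 0.162). Its guide fell by 0.46 on the log2 scale in both genotypes (limma, adjusted p = 0.0335 in WT and 0.0269 in KO). After irradiation the star strand was detected on 3 of 4 arrays in WT and on 2 of 4 in KO. The star strand thus entered the test only through the non-irradiated groups, where its mean was higher, so the filter favoured a fall. Its call in KO was fragile. It was kept in 9 of 16 fits that left out an array, and the adjusted p was 0.113 without KO no UV replicate 3, 0.104 without KO UV replicate 3, 0.0655 without KO no UV replicate 2, 0.065 without KO no UV replicate 4, 0.0593 without KO UV replicate 2, 0.0588 without KO UV replicate 4 and 0.05 without WT no UV replicate 4. It was also lost under 4 of 9 other alternatives, where the highest adjusted p was 0.108. MiR-29b*, from another hairpin of the family, was at the floor on all 16 arrays. With a floor of 1 signal unit its log2 difference in KO was 0.86 (limma, adjusted p = 0.0123), and it was 0.46 in the values processed by the authors (limma, adjusted p = 0.0197), higher and not lower after irradiation, while fewer arrays detected it.

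**Figure D3:**
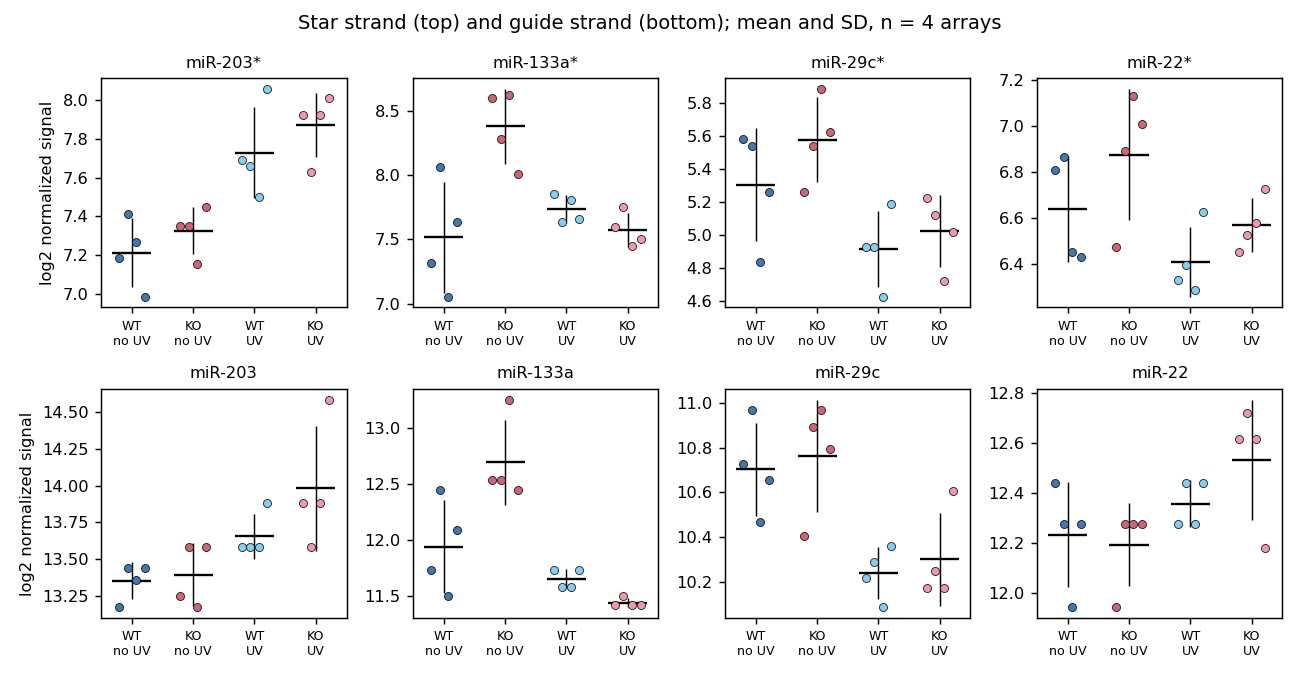
Log2 normalized signal of star strands (top) and their guides (bottom) for miR-203, miR-133a, miR-29c and miR-22, by group, with arrays as points and mean and SD (n = 4) as lines; each panel has its own vertical scale. After UV the group means of both miR-203 strands are higher and of both miR-29c strands lower, while in KO the mean of miR-22* is lower and that of miR-22 higher.

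In WT, the star strands next in order of p were miR-17*, from the cell cycle-linked miR-17-92 cluster, and miR-24-2*. MiR-17* read 56.2, 61.3, 49.2 and 60.2 without UV and 59.1, 60.2, 68.3 and 75.1 after it, a difference of 0.21 ± 0.08 (limma, adjusted p = 0.104). MiR-24-2* read 174, 145, 160 and 170 without UV and 129, 142, 129 and 137 after it, without overlap. Its log2 difference was -0.27 ± 0.12 (limma, adjusted p = 0.123). It passed under both scalings to a 75th percentile and with only the WT arrays (adjusted p = 0.0157, 0.0412 and 0.0467), and normexp turned it to 0.21. MiR-24-1*, with the same seed, differed by 0.08 ± 0.24 in WT and 0.28 ± 0.24 in KO.

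MiR-712* varied widely within groups. It read 8.91, 101, 108 and 207 in WT no UV, 71.0, 279, 114 and 33.9 in KO no UV, 9.49, 38.3, 5.88 and 55.4 in WT UV and 45.5, 4.88, 41.2 and -0.347 in KO UV. Without UV the arrays of 1 group thus spanned more than the shift with irradiation. On the floored log2 scale the difference was -1.45 ± 0.75 in WT and -1.69 ± 0.75 in KO (limma, adjusted p = 0.205 and 0.103). MiR-712* was detected on 3 arrays of WT no UV, 4 of KO no UV, 2 of WT UV and 2 of KO UV. It thus entered the test only through KO no UV, where its mean was highest, so the filter favoured a fall in KO. The files give it no position on mm9.

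The interaction compared the UV effect in WT with that in KO. Limma called 0 of 26 star strands, beside 2.19% of all miRNAs tested. At an unadjusted p under 0.05 there were 2 star strands and 29 miRNAs. MiR-133a* had the smallest p, with a difference of 1.03 ± 0.27 between the UV effects (limma, adjusted p = 0.0771), and miR-30e* followed with 0.44 ± 0.14 (limma, adjusted p = 0.13). MiR-133a* passed without WT no UV replicate 2 (adjusted p = 0.00567) or KO no UV replicate 4 (0.0377), and miR-30e* without KO no UV replicate 4 (0.0486). The value was 0.32 ± 0.20 for miR-378*, -0.03 ± 0.18 for miR-203* and 0.17 ± 0.26 for miR-29c* (limma, adjusted p = 0.583, 0.997 and 0.864). The star strands called after irradiation in KO alone were therefore not shown to respond differently from WT.

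Unequal change of the strands of a hairpin was tested as the log2 signal of the star minus that of its guide on each array. Where a guide comes from more than 1 hairpin, as miR-24, miR-30c, let-7c and miR-29b do, its signal cannot be split by hairpin. The ratios of miR-24-1*, miR-24-2*, miR-30c-1*, miR-30c-2*, let-7c-2* and miR-29b* therefore do not measure the strands of a single hairpin. Whether the other guides, among them miR-133a and miR-199b, come from a single hairpin was not checked. A total of 25 star pairs had both strands tested. In WT, 5 of 25 ratios were called (1 rose and 4 fell), beside 21.6% of all 37 arm pairs. In KO, 11 of 25 were called (3 rose and 8 fell), or 44.0%, beside 35.1%. Between KO and WT, 0 of 25 were called without UV (2.7% of all arm pairs; 2 star pairs at an unadjusted p under 0.05) and 0 after UV (0%; 1 star pair). For the interaction 0 were called (0%; 0 star pairs), so no strand ratio was shown to respond differently in the genotypes. The smallest p without UV belonged to miR-193* (-0.54, limma adjusted p = 0.124, and 0.00433 without WT no UV replicate 2) and miR-214* (0.34, 0.13). After UV it belonged to miR-24-2* (-0.29, limma adjusted p = 0.657) and miR-29b* (0.38, 0.847), and for the interaction to miR-24-2* (0.30, 0.827) and miR-141* (-0.41, 0.827).

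Several of the called ratios after UV rest on a guide alone. The star was at the floor on all arrays in 3 of 5 called pairs in WT and 4 of 11 in KO, where the ratio is the guide's change with its sign turned. MiR-28* is such a case: its ratio changed by -0.55 in WT and -0.48 in KO (limma, adjusted p = 0.00263 and 0.00814), while miR-28 rose by 0.55 and 0.48. So are miR-200b* (-0.44 in WT and -0.39 in KO; limma, adjusted p = 0.018 and 0.025), miR-193* in WT (-0.52, 0.0383) and miR-30c-1* in KO (0.34, 0.0226). Most of these calls were unstable. MiR-193* in WT was called under 2 of 9 alternatives and in 8 of 16 fits that left out an array, and was lost without any single WT array but WT no UV replicate 2, and without KO UV replicate 3 (adjusted p up to 0.119). MiR-200b* in WT was called under 6 of 9 and in 12 of 16, and was lost without WT no UV replicate 1 or 4 or WT UV replicate 1 or 4 (up to 0.0709). In KO it was called under 3 of 9 and in 12 of 16, and was lost without KO no UV replicate 2 or 3 or KO UV replicate 1 or 2 (up to 0.0877). MiR-30c-1* was called under 4 of 9 and in 13 of 16, and was lost without KO no UV replicate 3 or KO UV replicate 2 or 3 (up to 0.0694). MiR-28* was called under 6 of 9 in WT and 7 of 9 in KO, and in all 16 fits of both. MiR-141* was above the floor on 4 of all 16 arrays, and among WT arrays only on WT UV replicates 3 and 4. In WT its ratio changed by -0.75 while miR-141 rose by 0.80. With a floor of 1 signal unit the miR-141* and miR-200b* ratios in WT were 0.32 and 0.44, neither called.

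Both strands of miR-133a were bright enough to be followed on all arrays, and their ratio rose in both genotypes. In WT the star differed by 0.22 and the guide by -0.29, so that the ratio changed by 0.51 ± 0.13 (limma, adjusted p = 0.00774). In KO the star fell by 0.81 and the guide by 1.25 on the log2 scale, and the ratio changed by 0.45 ± 0.13 (limma, adjusted p = 0.0172). The star thus fell less than its guide. The ratio lost its call in WT under normexp (adjusted p = 0.0533) and with the array row as a covariate (0.0522). In KO it lost it under normexp (0.316), with only the KO arrays (0.0871), without KO no UV replicate 3 (0.0572) and without KO UV replicate 2 (0.0598).

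The ratio of miR-22* fell in KO. MiR-22* read 88.9, 119, 140 and 129 in KO no UV and 87.5, 92.2, 95.6 and 106 in KO UV, while miR-22 read 3940, 4963, 4963 and 4963 and then 6279, 6755, 6279 and 4648. The star differed by -0.31 and the guide by 0.34, neither called alone, and their ratio by -0.65 ± 0.15 (limma, adjusted p = 0.00814). It was called under all alternatives but the fit on KO arrays only (adjusted p = 0.0679), and in all 16 fits that left out an array. In WT the ratio differed by -0.35 ± 0.15 (limma, adjusted p = 0.098), and the interaction was not called.

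The other called ratios in KO with the star above the floor on all arrays were those of miR-24-2* (-0.40, limma adjusted p = 0.0172), miR-199b* (-0.48, 0.031) and miR-140* (-0.39, 0.0274). MiR-140* itself hardly moved, by 0.07, while miR-140, a miRNA of cartilage, rose by 0.46. The miR-140* ratio was called under 6 of 10 alternatives (adjusted p up to 0.728) and in 12 of 16 fits that left out an array, and was lost without KO no UV replicate 1 or 4 or KO UV replicate 1 or 2 (up to 0.0928). MiR-199b* was named here because its star was above the floor, and was not carried through the alternatives. The ratio of miR-24-2* was -0.18 under both scalings to a 75th percentile, and lost its call there, under normexp, with only the KO arrays, with the row and without KO UV replicate 2 (limma, adjusted p = 0.0598). MiR-30c-2*, above the floor on 8 arrays, had a ratio of 0.48 (limma, adjusted p = 0.0172) while miR-30c fell by 0.34, and lost its call under 3 alternatives and without KO UV replicate 2 (0.0598). With only pairs whose strands both stood above the floor on all arrays, a restriction chosen after the data were seen, 12 star pairs remained among 16 arm pairs. In WT 1 star ratio was called among 2 of all pairs, and in KO 5 among 7.

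**Figure D4:**
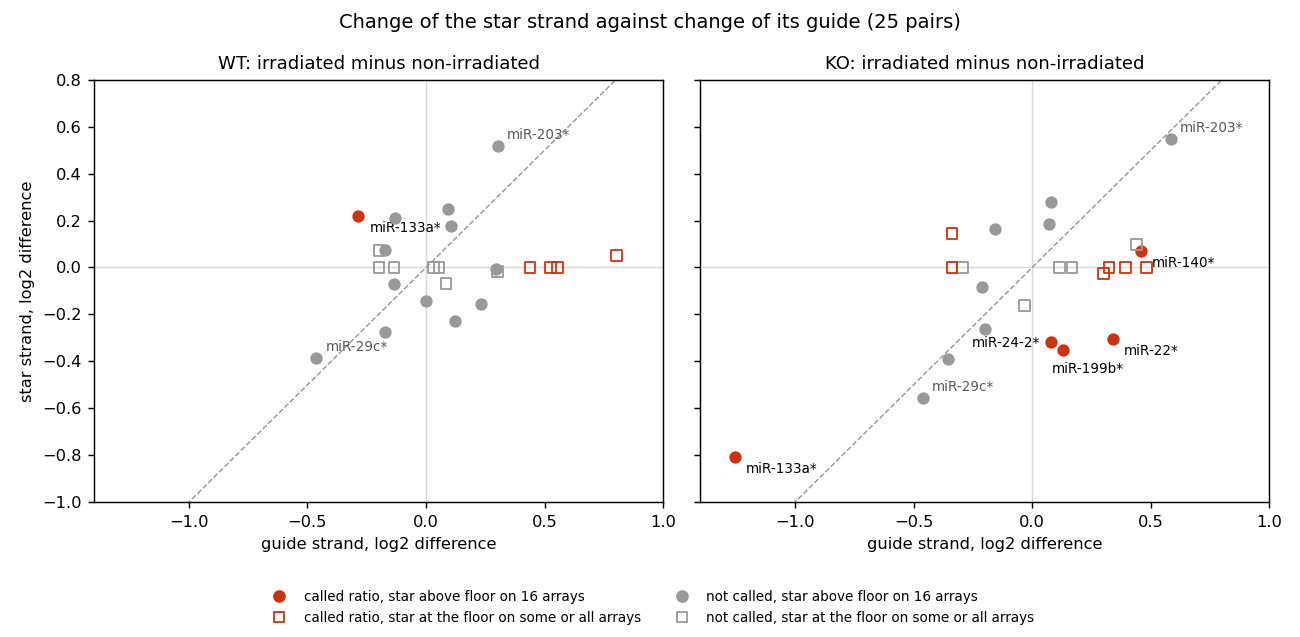
Log2 difference of the star strand after irradiation (vertical axis) against that of its guide (horizontal axis) for 25 pairs in WT and in KO, with equal change on the dashed line. Red symbols are called ratios. Open squares are star strands at the floor on some or all arrays, most of which lie on or near the horizontal zero line. MiR-712*, at -1.45 in WT and -1.69 in KO, falls below the drawn range and is not shown. MiR-133a* lies above the dashed line in both panels and miR-22* below it in KO.

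By hairpin family, all 5 miR-30 star strands and all 3 miR-29 star strands were detected on at least 1 array, as were 4 of 6 from epithelial hairpins, 4 of 7 from let-7, 3 of 8 from the miR-17-92 and related clusters, 2 of 4 from miR-23, miR-27 and miR-24, and 2 of 7 from fibroblast and vessel hairpins. From leukocyte hairpins 1 of 2 was detected, miR-150*, on 2 arrays. Among the epithelial star strands, miR-203* was detected everywhere and miR-141* on 14 arrays. MiR-141* read 8.78 ± 1.07 (SD, n = 4) in WT no UV and 19.1 ± 2.70 in WT UV, and 11.3 ± 0.39 in KO no UV against 20.2 ± 2.38 in KO UV, below the floor without UV and around it after UV, so that its log2 differences were 0.05 in WT and 0.10 in KO. MiR-200a* and miR-200b*, cut from the same cluster as miR-200a and miR-200b, were detected on 6 and 7 arrays.

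Where all arrays of a group missed a star strand and the other group did not, the difference is only a bound. It was taken against, for each dim array, the higher of the lowest detected signal and the strand's own signal. It was above 1 in 4 of 16 such comparisons, in which the dim group was by construction the undetected one. MiR-135a*, detected on all 4 WT no UV arrays, had a bound of 1.42-fold lower in WT UV (bright mean 17.1). MiR-99b*, whose hairpin lies in Spaca6, had 2 of 4 detections in WT no UV and a bound of 1.56-fold lower in WT UV (bright mean 17.8). Neither was called on the floored scale (limma, adjusted p = 0.681 and 0.168). MiR-135a* entered the test only through the non-irradiated groups, so its direction was favoured by selection. The lowest detected signal is not a detection limit, and these bounds are not firm. MiR-200a*, for example, was undetected at 19.0 on WT UV replicate 1, where the lowest detected signal was 12.8. The other 2 bounds were those of miR-99b* and miR-200a* in KO. Both strands entered the test only through KO no UV, the bright group there, so the direction was fixed by selection.

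The remaining 15 star strands that were detected, on fewer than all arrays of every group, were not tested. They were miR-29a* on 6 arrays, miR-7a* and miR-191* on 5 each, let-7d*, miR-30b*, miR-150*, miR-295* and miR-302c* on 2 each, and let-7b*, let-7f*, miR-15b*, miR-92a*, miR-106b*, miR-181a-1* and miR-330* on 1 each. All of these detections were on the non-irradiated slide. MiR-29a* read 2.20 to 8.20 there and 5.26 to 17.9 on the irradiated slide, where it was not detected.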

How the data were processed

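RNA (100 ng) from 16 skin samples was labelled with Cy3 and hybridised to Agilent mouse miRNA arrays. Per the file headers, Feature Extraction 9.5.3.1 subtracted a fitted background and summed the spots of each miRNA; the deposited values are intensity values on a linear scale, not normalized between arrays, with a detection call. An alternative used the log2 values that the authors deposited for the whole series, normalized by an invariant set and quantiles (offset not given in the sources used here).

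The summed signals were quantile normalized (limma 3.58.1, R 4.3.3), floored at 19.4 (from the 5th percentile of detected miRNAs on each array, median taken), and log2 transformed. The 228 miRNAs detected on all arrays of a group entered 1 group-means limma fit, tested on simulated data. Those at the floor throughout counted as not called. Calls had a Benjamini-Hochberg adjusted p under 0.05. The same fit was run on 37 arm ratios. Named star strands were miR-133a*, miR-203*, miR-29b*, all called ones, or the 3 with the smallest p where fewer than 3 were called, and for ratios up to 8 called or the 2 with the smallest p; other names were chosen after values were seen. Members, lists and tests were chosen with earlier results of these data known. Groups came from the labels. Alternatives changed scaling, background (normexp, offset 50), source table, filter, floor, block, row, arrays and threshold.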

Additional observations from a re-analysis of the deposited data

Results flagged for a closer look

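A single value stood apart from its group. In KO UV replicate 3 the log2 normalized signal of miR-199b* was 9.73, while the other KO UV arrays lay between 10.04 and 10.09. The gap was 0.874 of the group's range, above Dixon's 95% critical value for groups of 4. The test was made in 53 groups of 4 arrays, and chance flags about 1 group in 20.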

How the results depend on the processing

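Counts of called star strands moved with the settings, in the order KO against WT without UV, UV in WT, UV in KO and interaction, where the reported counts were 0, 1, 3 and 0. They were 1, 2, 6 and 0 when scaled by the 75th percentile over miRNAs detected everywhere, 0, 3, 4 and 0 with that of all miRNAs, 3, 0, 2 and 1 with normexp, 2, 6, 9 and 0 in the authors' series table, 2, 6, 7 and 0 with a floor of 1, and 0, 0, 2 and 0 with the array row. At the methods' threshold of p under 0.001 and 1.5-fold they were 1, 0, 1 and 0. The methods do not make clear whether that p was adjusted, and the unadjusted p was used here. Leaving out an array gave 0 to 1 (1 without WT no UV replicate 2 or KO no UV replicate 4), 1 to 2 (2 without WT no UV replicate 1 or 3), 2 to 5 (5 without KO no UV replicate 1 or 4) and 0 to 2 (1 without WT no UV replicate 2, 2 without KO no UV replicate 4). KO against WT after UV gave 0 throughout. Over all 228 miRNAs the calls for UV in WT and KO were 37 and 68 as reported, 40 and 55 or 41 and 54 with these scalings, 5 and 14 with normexp, 58 and 79 in the series table, 56 and 77 with the floor of 1, and 27 and 31 with the row. In the same order, KO against WT without UV gave 0 as reported, then 3 or 0, 10, 9, 4 and 0. The interaction gave 5 as reported, then 0 or 2, 3, 2, 2 and 0.

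Called star ratios after UV, 5 in WT and 11 in KO, became 6 and 6 or 8 and 9 with the respective scalings, 2 and 1 with normexp, 3 and 10 in the series table, 2 and 3 with the row, 1 and 1 at the methods' threshold, and 1 and 5 over pairs above the floor, an alternative added after the data were seen. The wider filter gave 17 in KO, and only the arrays compared gave 0 in KO. Over all 37 arm pairs the calls were 8 and 13 as reported, 9 and 8 or 11 and 12, 3 and 1, 9 and 16, and 4 and 4 with the row. They were 2 and 7 of 16 pairs above the floor, 20 of 53 in KO with the wider filter, and 1 in KO with only its arrays. Leaving out an array gave 3 to 9 in WT (3 without WT no UV replicate 4, WT UV replicate 1 or 4, 9 without KO UV replicate 4), 2 to 13 in KO (2 without KO UV replicate 2, 5 without KO no UV replicate 3, 7 without KO no UV replicate 2, KO UV replicate 1 or 3) and 0 to 1 between genotypes without UV (1 without WT no UV replicate 2). The cause of these shifts was not tested.

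Directions turned for values that were not called, or lost their call: under normexp miR-203* was -0.72 (KO against WT without UV) and -0.46 (UV in WT), miR-24-2* 0.21 (UV in WT), the miR-214* ratio -0.56 (KO against WT without UV) and the miR-28* ratio 0.20 (UV in KO). With a floor of 1 the ratios of miR-193* (KO against WT without UV), miR-141* and miR-200b* (UV in WT) and miR-30c-1* (UV in KO) were 0.31, 0.32, 0.44 and -0.20. With the row, miR-133a* was 0.07 between genotypes after UV. The interaction of miR-203* became 0.039, 0.036, 0.041 and 0.014 without WT no UV replicate 2, KO no UV replicate 3, WT UV replicate 3 or KO UV replicate 4.

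The first of these scalings lowered the median UV effect in WT to -0.14 on the log2 scale over 170 miRNAs, and calls there went from 21 higher and 16 lower to 14 and 26. In KO they went from 42 and 26 to 22 and 33. With the replicate number as a block, 0, 0, 1, 4 and 0 star strands and 0, 0, 6, 10 and 0 ratios were called in the 5 contrasts. Same-numbered arrays of different groups correlated at -0.348 to 0.378 in their deviations (median 0.161, 15 of 24 pairs over 0.1, against a median of -0.0525 for other numbers). As not every pair passed 0.1, the numbers were not taken as pairs.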
